A study of Mus musculus with 24 samples.

Results

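Tyrosine hydroxylase, encoded by Th (ENSMUSG00000000214), was followed in the cerebellum of mice with impaired mitochondrial complex I in the brain. It is 1 of 43430 genes in the deposited count table. Th was chosen because it differed between cKO and Cre control cerebella in these same libraries, so differences of Th between genotype groups that use those libraries are given as a description and carry no p-value. Polyadenylated RNA was sequenced from entire cerebella of 24 mice aged around 7 weeks, 1 mouse per library, in 4 genotype groups of 6 with 3 males and 3 females each. The groups were cKO+NDI1, cKO, NDI1 control and Cre control.

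The labels give the genotypes by these names only. From knowledge of the study, cKO denotes a conditional deletion of Ndufs4, an accessory subunit of complex I, by a Cre recombinase under a Nestin promoter, which acts in the precursors of most neurons and glia. NDI1 is a single-subunit NADH dehydrogenase of yeast that regenerates NAD+ from NADH but pumps no protons, inserted at the Rosa26 locus. The Cre control carries the recombinase without the deletion. The labels do not say which further alleles the groups share. The study's title concerns NAD+ regeneration, lifespan and ataxia, and the comparisons here ask how Th stood in knockout cerebella with and without NDI1.

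Tyrosine hydroxylase turns tyrosine into L-DOPA, the rate-limiting step in the synthesis of dopamine, noradrenaline and adrenaline, with tetrahydrobiopterin as its cofactor. The cerebellum holds no catecholamine cell bodies of the classical kind, and receives noradrenergic fibres from the locus coeruleus of the brainstem. Th RNA is nevertheless made in some Purkinje cells of the mouse cerebellum, and it persists at raised levels in adult Purkinje cells of ataxic mice with mutations of the calcium channel gene Cacna1a. In other tissues the gene is known to respond to cyclic AMP and neuronal activity through CREB and AP-1 factors, and to low oxygen in the carotid body.

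Th lies on the minus strand of mouse chromosome 7 in build mm10, from 142892752 to 142931128. The GENCODE annotation gives it 6 transcripts. Th-201, with 13 exons, starts at 142900014, and the coding transcripts Th-202 and Th-206 start 31114 and 31106 bases farther upstream. The library kit does not mark strand, but no other annotated gene overlapped Th on either strand. The deposited counts are per gene and do not tell the transcripts apart.

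The sequence before the Th-201 start is shown because several of the regulators described later bind short motifs there. It covers 231 bases of the minus strand, chr7:142900015-142900245, from the RefSeq promoter table of build GRCm38.p6, written 5′ to 3′ with the motifs found in capitals.

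Th promoter: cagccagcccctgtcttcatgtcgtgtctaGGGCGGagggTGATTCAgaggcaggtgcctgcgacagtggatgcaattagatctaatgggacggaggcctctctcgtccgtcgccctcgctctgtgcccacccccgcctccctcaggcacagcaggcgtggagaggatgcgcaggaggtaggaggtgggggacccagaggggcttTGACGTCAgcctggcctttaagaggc

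From left to right the capitals mark the GC box GGGCGG, the AP-1 motif TGANTCA and the cyclic AMP response element TGACGTCA. They lie from 220 to 215, from 210 to 204 and from 45 to 38 bases before the RefSeq start, which is inside the Th-201 transcript, a short way past the last base printed. Of 32544 mouse promoters cut to the same window and searched on both strands, 30.2% held the GC box, 6.34% the AP-1 motif and 1.3% the cyclic AMP response element. The NBRE of NR4A receptors (AAAGGTCA, in 1.25% of promoters), the core of the hypoxia response element (ACGTG, in 15.3%) and the TATA sequence TATAAA (in 11.8%) were not among these letters. A match or its absence describes this window and says nothing about which factor was bound.

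Library totals ranged from 7584374 to 19785264 counts and averaged 14575287 in cKO+NDI1, 11619939 in cKO, 15315893 in NDI1 control and 15939006 in Cre control. Gt(ROSA)26Sor, the noncoding RNA of the Rosa26 locus, averaged 7.04 ± 1.35 CPM in cKO+NDI1, 34.8 ± 8.14 in cKO, 7.01 ± 0.879 in NDI1 control and 35.7 ± 7.53 in Cre control (CPM, read counts scaled to a common TMM library size; mean ± SD, n = 6 here and below), so it was low in both groups labelled with NDI1. Ndufs4 averaged 101 ± 15.1 CPM in cKO+NDI1, 95.4 ± 21.5 in cKO, 144 ± 41.8 in NDI1 control and 134 ± 23.6 in Cre control. Its difference did not pass the test in cKO against Cre control (log2 -0.47 ± 0.16, SE; edgeR adjusted p = 0.0939) or in cKO+NDI1 against NDI1 control (log2 -0.49 ± 0.16, edgeR adjusted p = 0.781). Counts over a whole gene also take in exons outside a deletion, so Ndufs4 is a limited check of the labels. The 6 cerebellar markers (Gabra6, Neurod1, Zic1, Pcp2, Calb1 and Cbln1) were present in every group, with summed levels between 5170 and 6400 CPM over all libraries.

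Th RNA was highest in cKO cerebella, lower in cKO+NDI1 cerebella, and lowest and least variable in the control groups. In cKO+NDI1 mice Th stood at 21.5, 23.3 and 15 CPM in males M1 to M3 and at 10.9, 11.9 and 10.8 CPM in females F1 to F3. In cKO mice it stood at 44.1, 30 and 14 CPM in the males and at 28.4, 34.9 and 20 CPM in the females. Both groups were uneven, with 1 male of the cKO group, M3, at the level of the controls. NDI1 control males had 14.6, 8.85 and 9.44 CPM and the females 10, 12.8 and 10.5 CPM. Cre control males had 10.3, 9.63 and 11.5 CPM and the females 12.5, 16.1 and 11.1 CPM. Every control library therefore lay between 8.85 and 16.1 CPM.

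**Figure D1:**
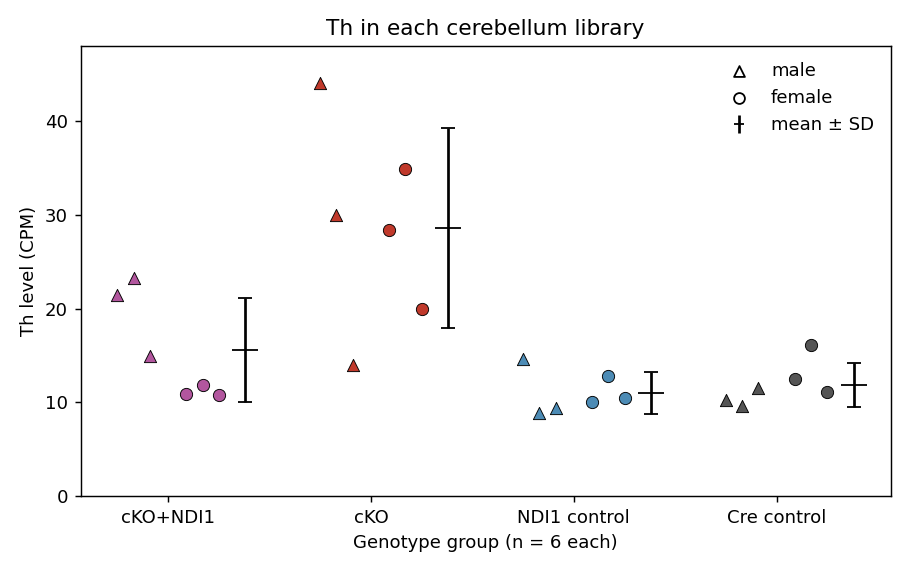
Th level in CPM (y axis) in each library of the 4 genotype groups (x axis); triangles are males, circles females, and the bars beside the points give the group mean ± SD (n = 6 each). The cKO libraries spread from 14 to 44.1 CPM, the cKO+NDI1 libraries from 10.8 to 23.3 CPM with the males on top, and the control libraries from 8.85 to 16.1 CPM.

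These levels rested on 82 to 478 Th reads per library, 5503 in all. The counting error was 11% at the lowest count and 4.57% at the highest, and covers the drawing of reads only. The coefficient of variation between mice was 35.4% in cKO+NDI1, 37.2% in cKO, 20.1% in NDI1 control and 19.4% in Cre control. The spread within each group was thus larger than the counting error. On the log2 scale the SD between mice of the same group and sex was 0.395.

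Group means of Th were 15.6 ± 5.52 CPM in cKO+NDI1, 28.6 ± 10.6 in cKO, 11 ± 2.22 in NDI1 control and 11.8 ± 2.29 in Cre control. By these means cKO+NDI1 lay 13 CPM below cKO, more than the SD of either group. cKO+NDI1 lay 3.73 CPM above Cre control, less than its own SD of 5.52. NDI1 control lay 0.801 CPM below Cre control, less than the SD of both. Ranked by its mean level in Cre control, Th was number 9941 of the 15300 genes with enough reads to be tested. Whether more cells made Th RNA or each cell made more of it cannot be told apart in these whole-tissue samples.

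In cKO against Cre control, the comparison that Th was chosen from, its level was 2.39-fold higher (log2 1.25 ± 0.23, SE from the edgeR model of all libraries). Of the 6 cKO libraries 5 lay above the highest Cre control library, at 16.1 CPM, and cKO male M3 at 14 CPM lay within the Cre control range. Th ranked number 23 of 15300 genes by this log2 fold change, and number 13 of the 14349 whose log2 CPM averaged 0 or more. In this comparison 4.87% of genes were called (745 genes, edgeR adjusted p under 0.05), 3.06% higher and 1.81% lower, and 1.61% had every cKO library above every Cre control library. The fold change kept its direction in every other setting tried, between log2 1.06 and 1.46. Leaving out 1 library at a time gave log2 1.11 to 1.4, the lowest without cKO male M1 and the highest without cKO male M3. Since cKO libraries were the least deep on average, the fit was repeated on counts thinned to the total of the shallowest library, which gave log2 1.24.

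With NDI1 in knockout mice, the Th level was 0.548 times that of cKO mice (log2 -0.87 ± 0.23 for cKO+NDI1 against cKO, description only because the cKO libraries chose Th). None of the 6 cKO+NDI1 libraries lay above the highest cKO library, and the groups overlapped between 14 and 23.3 CPM. In this comparison 0.209% of genes were called. Against Cre control, cKO+NDI1 differed by log2 0.39 ± 0.23, again as a description, with 2 of 6 libraries above the highest Cre control library, where 1.25% of genes were called. NDI1 control against Cre control differed by log2 -0.11 ± 0.23, with 0.00654% of genes called. The knockout's log2 fold change with NDI1 minus that without it was -0.76 ± 0.32 for Th. These comparisons share libraries with the one that chose Th and with each other.

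The comparison of cKO+NDI1 with NDI1 control contrasts no library of the choice and was tested. The model's estimate of spread still drew on all libraries, those of cKO and Cre control included. Th was 1.41-fold higher in cKO+NDI1 (log2 0.50 ± 0.23), with an unadjusted p of 0.0424 and an adjusted p of 0.998 by edgeR, and was not called. A fit to the 2 groups alone, free of the libraries of the choice, gave log2 0.46 (edgeR unadjusted p = 0.0228, adjusted p = 0.917). The 3 cKO+NDI1 libraries above the highest NDI1 control library, at 14.6 CPM, were the 3 males, and the 3 females lay within the NDI1 control range. Of all genes, 0.19% had every cKO+NDI1 library above every NDI1 control library. In this comparison edgeR called 0% of genes, against 23 genes called by DESeq2 and 0 by limma-voom. Of all 15300 genes tested, 686 had an unadjusted p under 0.05, Th among them. That is fewer than chance alone gives at this threshold. The Th difference was log2 0.88 in a fit to males alone (edgeR adjusted p = 0.256) and log2 0.02 in a fit to females alone (edgeR adjusted p = 1). The pooled value is thus an average of unequal values in the sexes.

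**Figure D2:**
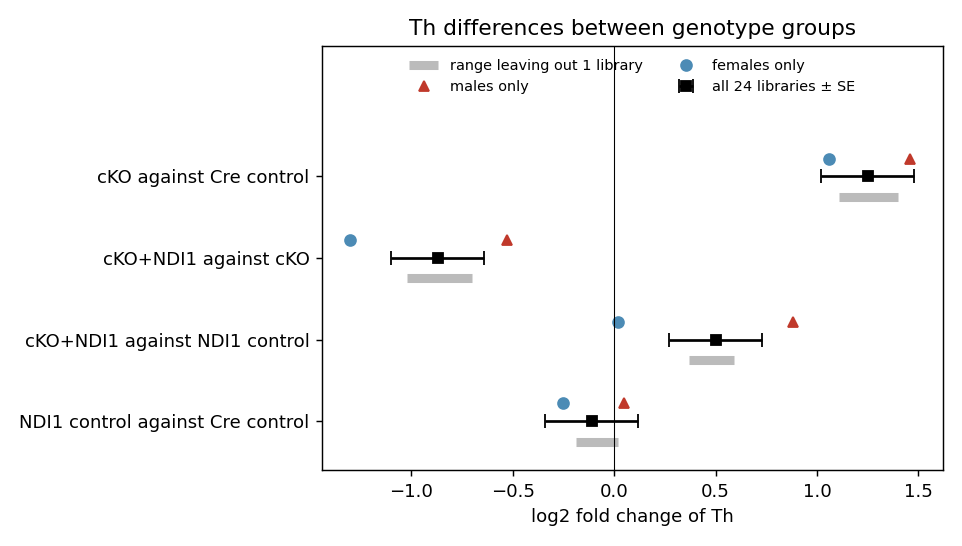
Log2 fold change of Th (x axis) in 4 comparisons (y axis); black squares with bars are the fit to all 24 libraries ± SE, triangles males only, circles females only, and grey bars the range of fits that each leave out 1 library. The value for cKO against Cre control lies between 1.06 and 1.46 in all of these fits, and that for cKO+NDI1 against NDI1 control is 0.88 in males and 0.02 in females.

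Split by sex, Th in cKO+NDI1 averaged 19.9 ± 4.34 CPM in males and 11.2 ± 0.56 in females (SD, n = 3 each here). In cKO it averaged 29.4 ± 15 CPM in males and 27.8 ± 7.44 in females, in NDI1 control 11 ± 3.18 and 11.1 ± 1.47, and in Cre control 10.5 ± 0.935 and 13.2 ± 2.59. All cKO+NDI1 males lay above all cKO+NDI1 females, a pattern noticed after the values were seen, and in each of the other groups the sexes overlapped. Over all groups, males against females differed by log2 0.14 ± 0.16 (edgeR adjusted p = 0.605), where 0.085% of genes were called. The difference between the sexes in the knockout's effect (male minus female), averaged over mice with and without NDI1, was log2 0.62 ± 0.29 for Th (unadjusted p = 0.0449, edgeR adjusted p = 0.15). Both comparisons of the sexes include the cKO and Cre control libraries that Th was chosen on, though the choice did not use sex. The difference in the knockout's effect was not called for Th, and edgeR called 0% of genes, against 1632 called by DESeq2 and 0 by limma-voom. Of all 15300 genes tested, 4855 had an unadjusted p under 0.05 there, Th among them. Such a p was thus common among all genes. The ratio of mean levels of cKO to Cre control was 2.8 in males and 2.11 in females, so both sexes had the higher Th level in cKO.

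Of 3 synthesis enzymes besides Th, Ddc and Dbh had enough reads to be tested, and 0 were called in any of the 5 comparisons between groups. Since 4.87% of all genes were called in cKO against Cre control and at most 1.25% in the others, no call among so few genes is near that share. Ddc (chromosome 11, 11814101 to 11898144), the decarboxylase that turns L-DOPA into dopamine, averaged 7.38 ± 1.84 CPM in cKO+NDI1, 9.22 ± 1.36 in cKO, 6.57 ± 0.671 in NDI1 control and 8.07 ± 1.59 in Cre control. Its cKO libraries ran from 7.97 to 11.7 CPM and overlapped those of the Cre control, from 5.98 to 10.4 CPM (log2 0.20 ± 0.14, edgeR adjusted p = 0.51). The Ddc difference in cKO+NDI1 against cKO was log2 -0.34 ± 0.15 (edgeR adjusted p = 0.495). Whether Ddc and Th differed in their changes was not tested.

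Dbh, which turns dopamine into noradrenaline and marks noradrenergic neurons, had 2 to 15 reads per library in cKO+NDI1, 1 to 10 in cKO, 2 to 15 in NDI1 control and 0 to 20 in Cre control. In cKO, Dbh had 1, 2 and 1 reads in males M1 to M3, where Th stood at 44.1, 30 and 14 CPM, and 4, 5 and 10 reads in females F1 to F3, where Th stood at 28.4, 34.9 and 20 CPM. Its difference in cKO against Cre control was log2 -0.63 ± 0.70 (edgeR adjusted p = 0.716). Pnmt, which makes adrenaline, had 0 to 1 reads in cKO, 0 to 2 in Cre control and 0 in the other groups, too few to test. At these counts only large changes of Dbh or Pnmt would have been detectable.

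Per kilobase of exon, the scale on which genes can be compared, the Th level averaged 6.59 CPM per kb in cKO+NDI1, 12.1 in cKO, 4.67 in NDI1 control and 5.01 in Cre control. The Ddc level was 1.66, 2.07, 1.47 and 1.81 CPM per kb in the same order of groups, and that of Dbh was 0.192, 0.125, 0.174 and 0.189. Th thus stood above both enzymes that act after it, in every group.

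The tetrahydrobiopterin genes make and recycle the cofactor of tyrosine hydroxylase. Of 7 tested, 1 fell in cKO against Cre control, where 1.81% of all genes were called lower. Log2 fold changes were negative for 6 (median -0.15, against -0.01 over all genes tested). Most were small beside their SE: Gchfr -0.2 ± 0.21, Pts -0.05 ± 0.17, Pcbd1 -0.15 ± 0.18 and Pcbd2 -0.1 ± 0.19, with Spr at -0.23 ± 0.13. The one called was Qdpr (chromosome 5, 45434032 to 45450235), dihydropteridine reductase, which recycles the cofactor after each round of hydroxylation. Qdpr ranged from 285 to 383 CPM in cKO+NDI1, 282 to 350 in cKO, 315 to 494 in NDI1 control and 316 to 510 in Cre control. The fall in cKO against Cre control was log2 -0.44 ± 0.10 (edgeR adjusted p = 0.0115), and the values of both groups overlapped. The call was lost in the fit to those groups alone (edgeR adjusted p = 0.0512) and in females alone (log2 -0.22, edgeR adjusted p = 0.38).

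Gch1, GTP cyclohydrolase and the first enzyme of cofactor synthesis, averaged 4.03 ± 1.06 CPM in cKO+NDI1, 4.47 ± 2.07 in cKO, 4.51 ± 0.956 in NDI1 control and 3.63 ± 0.729 in Cre control (cKO against Cre control log2 0.28 ± 0.23, edgeR adjusted p = 0.586). Its regulator Gchfr averaged 5.16 CPM in cKO+NDI1, 5.1 in cKO, 4.97 in NDI1 control and 5.88 in Cre control. The later synthesis enzymes Pts and Spr averaged 43.1 and 60.8 CPM in cKO+NDI1, 39.6 and 49 in cKO, 45.5 and 67.5 in NDI1 control and 41.6 and 57.8 in Cre control. None of these passed in any comparison. Pcbd1 and Pcbd2, carbinolamine dehydratases of cofactor recycling, averaged 7.84 and 19 CPM in cKO+NDI1, 7.12 and 17.2 in cKO, 9.51 and 21.5 in NDI1 control and 7.91 and 18.8 in Cre control, also without a call.

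Among genes of transport and breakdown, 4 of 7 were tested and 0 were called in any of the 5 comparisons. With 4.87% of all genes called in cKO against Cre control and at most 1.25% in the others, 0 of 4 is near that share. Slc18a2, which loads monoamines into vesicles, averaged 3.82 ± 0.873 CPM in cKO+NDI1, 4.03 ± 0.434 in cKO, 4.07 ± 0.703 in NDI1 control and 4.16 ± 1.06 in Cre control (cKO against Cre control log2 -0.05 ± 0.17). The monoamine oxidases Maoa and Maob averaged 86.2 and 19.3 CPM in cKO+NDI1, 86.1 and 21.5 in cKO, 87.1 and 17.9 in NDI1 control and 85.4 and 19.8 in Cre control. Neither oxidase was called. The remaining transporters were close to absent: Slc18a1 averaged 0.531, 0.342, 0.329 and 0.438 CPM in the same order of groups, and Slc6a2 of noradrenergic neurons had at most 16 reads in any library. Slc6a3, the dopamine transporter, had at most 3 reads in any library.

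Of 14 dopamine and adrenergic receptor genes 9 were tested, and 0 were called in any of the 5 comparisons. The share called among all genes was 4.87% in cKO against Cre control and at most 1.25% in the others, so 0 of 9 is near it. The receptors' median log2 fold change was 0.01 in cKO against Cre control and -0.05 in cKO+NDI1 against NDI1 control. Of the related hydroxylases of aromatic amino acids, Tph1 had too few reads to be tested. Tph2, of serotonin neurons, averaged 1.61 ± 0.697 CPM in cKO+NDI1, 1.48 ± 0.423 in cKO, 1.1 ± 0.293 in NDI1 control and 1.22 ± 0.333 in Cre control. It was not called (cKO against Cre control log2 0.27 ± 0.26, edgeR adjusted p = 0.65).

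**Figure D3:**
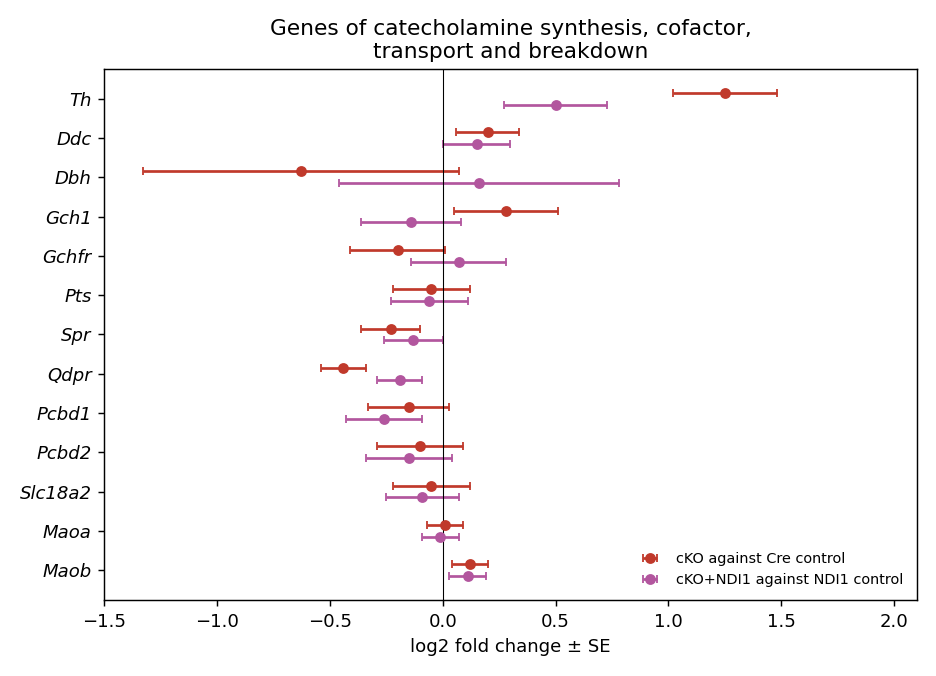
Log2 fold change ± SE (x axis) of Th and other tested genes of catecholamine synthesis, cofactor, transport and breakdown (y axis) for cKO against Cre control (red) and cKO+NDI1 against NDI1 control (purple). Th lies at 1.25 in cKO against Cre control, where Ddc lies at 0.20 and Qdpr, which passed the test there, at -0.44.

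Genes tied to the known control of Th fell into 3 lists. Of 15 genes of neuronal activity and CREB signalling, Fosb rose and Arc fell in cKO against Cre control, where 3.06% of all genes were called higher and 1.81% lower. Of the 15, 11 had positive values and the median log2 fold change was 0.46, against -0.01 over all genes. In cKO+NDI1 against cKO, where 0.209% of all genes were called, 0 were called and 14 of 15 had negative values (median -0.4). In cKO+NDI1 against NDI1 control, where 0% of all genes were called, 0 were called and 13 had positive values (median 0.14). The cKO+NDI1 and cKO libraries enter more than one of these comparisons. Without cKO female F1 the medians were 0.11 in cKO against Cre control and -0.01 in cKO+NDI1 against cKO.

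Fosb (chromosome 7, 19302721 to 19310045), an AP-1 subunit, ranged from 0.524 to 3.29 CPM in cKO+NDI1, 0.471 to 45.1 in cKO, 0.428 to 1 in NDI1 control and 0.223 to 1.91 in Cre control. Its rise (log2 2.96 ± 0.85, edgeR adjusted p = 0.0438) rested on cKO female F1 at 45.1 CPM, with the next cKO library at 4.38 CPM, and without F1 it was log2 0.8 (edgeR adjusted p = 0.538). The library with the highest Th level, cKO male M1, had a Fosb level of 0.57 CPM, from 5 reads. Whether the levels of Fosb and Th went together among the cKO mice was not tested. Arc (chromosome 15, 74669083 to 74672570), a synaptic immediate early gene, ranged from 17.2 to 25.4 CPM in cKO+NDI1, 13.4 to 22.5 in cKO, 18.1 to 24.3 in NDI1 control and 20.9 to 25.7 in Cre control (cKO against Cre control log2 -0.37 ± 0.10, edgeR adjusted p = 0.0362). Arc no longer passed in 9 of the 24 fits with 1 library omitted, with adjusted p between 0.056 and 0.098 in those.

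Of 11 hypoxia genes, Pdk1 fell in cKO against Cre control, where 1.81% of all genes were called lower, and 7 in all had negative values (median -0.03). Pdk1 (chromosome 2, 71873224 to 71903858), a kinase that holds pyruvate back from the citrate cycle, averaged 32.8 ± 2.49 CPM in cKO+NDI1, 25 ± 3.96 in cKO, 32.7 ± 1.88 in NDI1 control and 33.8 ± 2.7 in Cre control (log2 -0.43 ± 0.08, edgeR adjusted p = 0.00385). The call was lost in the fit to those groups alone (edgeR adjusted p = 0.0545) and in males alone (edgeR adjusted p = 0.15). No hypoxia gene was called in the other comparisons between groups, where at most 1.25% of all genes were called.

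Of 11 voltage-gated calcium channel genes, the family whose ataxic mutants carry Th in Purkinje cells, 0 were called in any of the 5 comparisons. That is near the share of all genes, 4.87% in cKO against Cre control and at most 1.25% in the others. Over all genes the median log2 fold change lay between -0.01 and 0.01 in each of these comparisons. Cacna1a itself averaged 281 ± 46.4 CPM in cKO+NDI1, 317 ± 62.7 in cKO, 284 ± 80.4 in NDI1 control and 290 ± 77.6 in Cre control (cKO against Cre control log2 0.15 ± 0.17, edgeR adjusted p = 0.72). The channel genes' median log2 fold change was 0.12 in cKO against Cre control, ranging from -0.2 to 0.37 over the other settings. It was -0.15 in cKO+NDI1 against cKO (10 of 11 negative), 0.07 in cKO+NDI1 against NDI1 control (4 of 11 negative), -0.07 in cKO+NDI1 against Cre control (7 of 11 negative) and -0.12 in NDI1 control against Cre control (11 of 11 negative).

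Genes beside Th on chromosome 7 were not called. Of 37 other genes with a start within 500 kb of that of Th, 11 were tested and 0 passed in any of the 5 comparisons. Among all genes 4.87% were called in cKO against Cre control and at most 1.25% in the others, so 0 of 11 is near that share. In cKO against Cre control their median log2 fold change was 0.01. There the count stayed at 0 in 8 of 10 other settings and in 22 of 24 fits with 1 library left out, and was 1 in the rest. The nearest tested gene on one side was Igf2, a growth factor made by meninges and choroid plexus, which averaged 200 CPM in cKO+NDI1, 175 in cKO, 205 in NDI1 control and 206 in Cre control (cKO against Cre control log2 -0.24 ± 0.07, edgeR adjusted p = 0.065). On the other side it was R74862, at 13.3, 12.9, 14.4 and 13.3 CPM in the same order of groups (log2 -0.05 ± 0.12). Neither neighbour had the higher level in cKO that Th had.

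Markers of cells that could carry Th were summed in every library. The 11 Purkinje cell markers, all detected, summed to 13000 to 15000 CPM in cKO+NDI1, 13300 to 14500 in cKO, 14200 to 15900 in NDI1 control and 14400 to 15600 in Cre control. One of them, the glutamate transporter Slc1a6, fell in cKO against Cre control (log2 -0.34 ± 0.06, edgeR adjusted p = 0.00267; 1.81% of all genes were called lower), and 10 of 11 had negative values there (median -0.09). Purkinje markers were thus not higher in cKO as a whole. They stand for all Purkinje cells, while Th RNA is made in some of them. Whether those cells carried the higher Th level was not tested.

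The 5 noradrenergic markers, among them Dbh, Slc6a2 and Slc18a2, summed to 3.96 to 8.92 CPM in cKO+NDI1, 4.1 to 6.05 in cKO, 4 to 7.35 in NDI1 control and 3.12 to 7.8 in Cre control. The 5 markers of midbrain dopamine neurons summed to 1.51 to 3.38, 1.02 to 2.8, 1.45 to 2.61 and 0.743 to 2.07 CPM in the same order of groups. Nearly all of this sum was Lmx1a, which averaged 2.19, 1.9, 1.89 and 1.53 CPM in that order. Slc6a3 and Pitx3 averaged at most 0.0702 CPM in any group. Among the dopamine markers Foxa1 was at 0 in every library, and Foxa2 was at 0 in all groups but cKO+NDI1. In cKO male M1, with Th at 44.1 CPM, the noradrenergic sum was 4.33 CPM, inside the Cre control range. Of that sum 3.99 CPM was Slc18a2, with Dbh at 0.114 CPM and Slc6a2 at 0.228 CPM. Slc18a2 made up most of the noradrenergic sum in every group, averaging 3.82, 4.03, 4.07 and 4.16 CPM in the same order. The sum thus says little about the other noradrenergic markers.

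The 9 Hox genes of the hindbrain caudal to the cerebellum summed to 0.383 to 12.2 CPM in cKO+NDI1, 0.456 to 22.4 in cKO, 0.0717 to 6.69 in NDI1 control and 0.52 to 18.6 in Cre control. The high values came from 1 library of each group, cKO+NDI1 male M3, cKO female F3, NDI1 control female F3 and Cre control male M2, where Th stood at 15, 20, 10.5 and 9.63 CPM. The cKO library with the highest Th level had a Hox sum of 0.456 CPM. The 3 serotonin markers summed to at most 3.62 CPM in any library and the 4 cholinergic markers to at most 4.74 CPM, with Isl1 at 0 throughout the Cre control. The 6 choroid plexus markers summed to 1280 to 3380, 1100 to 3710, 1590 to 3830 and 1110 to 4190 CPM in the same order of groups. The 5 chromaffin and sympathetic markers summed to 558 to 748, 544 to 827, 570 to 734 and 632 to 873 CPM. Nearly all of this sum was Chgb (569, 548, 550 and 618 CPM on average) and Chga (104, 86.3, 120 and 119 CPM). Hand2 was at 0 in every library, and Pnmt and Gata3 averaged at most 0.254 CPM in any group. Chga, which neurons also express, fell in cKO against Cre control (log2 -0.46 ± 0.09, edgeR adjusted p = 0.00358), where 1.81% of all genes were called lower. The part of these cell types in the Th levels was not tested.

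**Figure D4:**
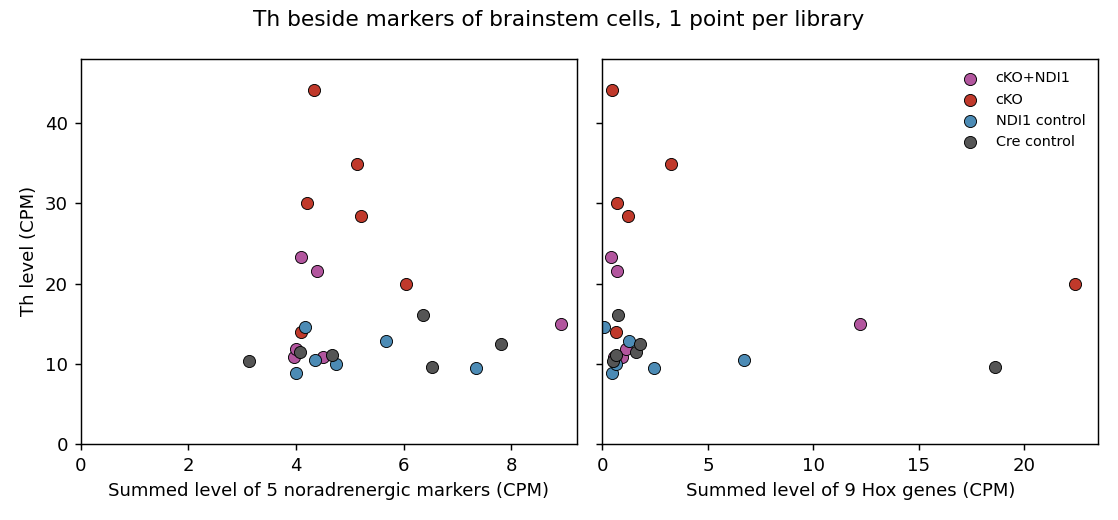
Th level in CPM (y axis) against the summed level of 5 noradrenergic markers (left, x axis) and of 9 hindbrain Hox genes (right, x axis), 1 point per library, coloured by group. Most of the noradrenergic sum is Slc18a2. The cKO library with Th at 44.1 CPM has a noradrenergic sum of 4.33 CPM and a Hox sum of 0.456 CPM, and the libraries with the highest Hox sums, 22.4 and 18.6 CPM, have Th at 20 and 9.63 CPM.

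The genes whose levels moved most like those of Th over the 24 libraries were Phyhd1, Slc2a4, Ctla2a, Pecam1 and Icosl. Likeness was the root mean square difference of log2 CPM from Th, with each gene centred on its own mean. It was 0.354 for Phyhd1, 0.375 for Slc2a4, 0.378 for Ctla2a, 0.418 for Pecam1 and 0.42 for Icosl, where a gene that does not vary would stand at 0.639. Of 13249 genes compared, 3489 were nearer to Th than such a flat gene. These values describe 24 libraries that share the genotype groups. Since the 5 genes were picked for following Th, which is high in cKO, their differences between groups are descriptions without a p-value.

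Phyhd1 (chromosome 2, 30266203 to 30282149), a dioxygenase of the phytanoyl-CoA hydroxylase family, averaged 3.51 ± 0.727 CPM in cKO+NDI1, 6.39 ± 1.69 in cKO, 2.8 ± 0.481 in NDI1 control and 2.93 ± 0.633 in Cre control. Its log2 fold change was 1.12 ± 0.18 in cKO against Cre control and -0.86 ± 0.18 in cKO+NDI1 against cKO. As for Th, cKO male M3 was the lowest of its group, at 3.71 CPM. The same held for Slc2a4, Ctla2a and Icosl, and picking genes for following Th favours such a likeness.

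Slc2a4 (chromosome 11, 69942539 to 69948188), the insulin-responsive glucose transporter, averaged 11.2 ± 1.17 CPM in cKO+NDI1, 15.1 ± 3.04 in cKO, 9.01 ± 1.4 in NDI1 control and 8.65 ± 0.38 in Cre control (cKO against Cre control log2 0.79 ± 0.12). Ctla2a (chromosome 13, 60934155 to 60936625), an inhibitor of cysteine proteases, averaged 19.8 ± 3.38, 30.1 ± 11.3, 13.6 ± 2.66 and 12.8 ± 1.53 CPM in the same order of groups (log2 1.23 ± 0.18). Pecam1 (chromosome 11, 106654217 to 106750628), an adhesion molecule of endothelial cells, averaged 38.1 ± 3.59, 46.9 ± 5.32, 28.3 ± 3.6 and 27.8 ± 2.07 CPM (log2 0.76 ± 0.09). The means of all 3 were highest in cKO, with cKO+NDI1 next.

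Pecam1 differed by log2 0.46 ± 0.09 in cKO+NDI1 against Cre control. Icosl (chromosome 10, 78069360 to 78079525), a ligand of a T cell costimulatory receptor, averaged 13.6 ± 2.45, 16.8 ± 2.51, 11.2 ± 2.19 and 11.8 ± 1.65 CPM and had the smallest log2 fold change of the 5 in cKO against Cre control (0.51 ± 0.13). Of the 5 genes, Phyhd1, Ctla2a and Icosl were in the promoter table, and 0 of these 3 held the cyclic AMP response element.

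**Figure D5:**
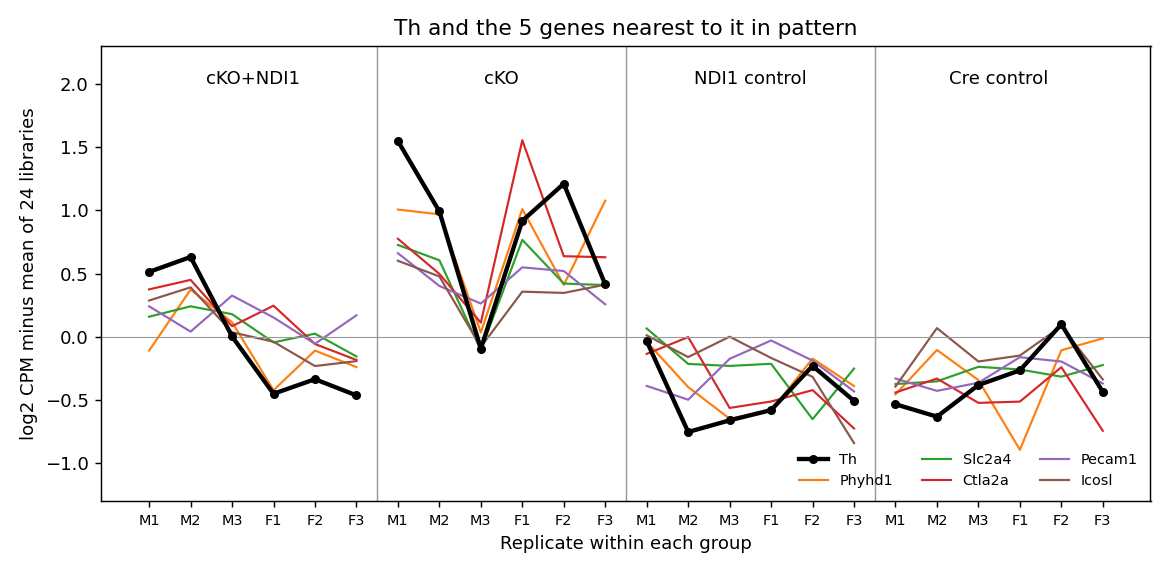
Log2 CPM minus each gene's mean of 24 libraries (y axis) in every library (x axis, M males and F females within each group) for Th (black) and the 5 genes nearest to it in pattern (colours); lines join libraries of 1 group only to guide the eye. Th and the 5 genes are highest on average in cKO. In cKO male M3 Th stood at 14 CPM and Phyhd1 at 3.71 CPM, each the lowest of its group, as Slc2a4, Ctla2a and Icosl also were. Pecam1 stood at 41.2 CPM there, above the highest Cre control library at 30.7 CPM.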

How the data were processed

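The authors deposited raw read counts per gene and library, whole numbers with no normalization. The submitters' processing notes name HTSeq, STAR, Trimmomatic and bcl2fastq and build mm10; versions are not given in the sources used here. Per the labels' protocols, RNA of frozen whole cerebellum was polyA-selected with an NEBNext Ultra kit. All 24 library columns were used.

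Groups and sexes come from the labels, which tie each library to 1 mouse. Libraries of a group were compared for copies over 60 pairs, and none was found (chi-square at least 4.67 per degree of freedom). Of 43430 genes, 42462 had a symbol in GENCODE M21, 15557 had 0 counts throughout and 15300 passed filterByExpr by group. The test was edgeR's robust quasi-likelihood F test (edgeR 4.0.16, limma 3.58.1, R 4.3.3) with TMM factors, in 1 model of all libraries with group and sex, with Benjamini-Hochberg adjustment across all 15300 genes and a threshold of 0.05. Calling means passing that threshold. A prior count of 2 was added before taking log2 CPM. The difference of the knockout's effect between sexes came from a model with a mean for each group and sex. Levels per kilobase used GENCODE exon lengths, because the deposited length column was the sum over all transcripts for 72.8% of genes. Sequence and motif positions came from the RefSeq promoter table. The method was tested on simulated data.

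Th and the gene lists were chosen with earlier results of these data known. Named genes are Th, the synthesis, cofactor, and transport and breakdown lists, called members of the other lists whose log2 CPM averaged 0 or more (up to 4 a list), the nearest tested neighbours, the 5 genes nearest in pattern (predicted genes passed over), Ndufs4 and Gt(ROSA)26Sor. Tph2, Cacna1a, Slc1a6 and Chga were named after their values were seen, and the calls of Slc1a6 and Chga were not followed through the alternatives. A few listed genes are not reported here. Alternatives were RLE factors, library size alone, no filter, DESeq2 1.42.0, limma-voom, a replicate block, fits to the groups compared alone or to 1 sex, thinned counts, and leaving out each library in turn.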

Additional observations from a re-analysis of the deposited data

Results flagged for a closer look

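Among 104 groups of 6 libraries looked at gene by gene, 4 had a single library far above the others by Dixon's criterion, and chance gives such a library in about 1 group in 20; Th had none. Slc18a2 stood at 5.49 CPM in cKO+NDI1 male M3, against 3.74 CPM in the next library of its group. This library also had the highest noradrenergic marker sum (8.92 CPM, which includes Slc18a2 itself) and a Hox sum of 12.2 CPM, and Th stood there at 15 CPM. Fosb stood at 3.29 CPM in cKO+NDI1 male M1 (next 1.47 CPM) and at 45.1 CPM in cKO female F1 (next 4.38 CPM). Ctla2a stood at 51.9 CPM in cKO female F1 (next 30.2 CPM), where Th stood at 28.4 CPM, near the middle of its group.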

How the results depend on the processing

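The direction of Th was the same under every alternative for cKO against Cre control and for cKO+NDI1 against cKO and against NDI1 control. It also held for the knockout effect with NDI1 minus without, and for both comparisons of the sexes wherever they could be fitted. For cKO+NDI1 against NDI1 control it included log2 0.02 in females alone, which is close to no difference. Fits to 1 sex gave other sizes. In cKO+NDI1 against cKO, females alone gave log2 -1.3 and males alone -0.53, where all libraries gave -0.87; against Cre control, cKO+NDI1 gave 0.93 in males alone and -0.23 in females alone. The cause was not tested. Leaving out 1 library at a time gave log2 1.11 to 1.4 for cKO against Cre control, -1.02 to -0.7 for cKO+NDI1 against cKO, 0.37 to 0.59 for cKO+NDI1 against NDI1 control, 0.26 to 0.51 for cKO+NDI1 against Cre control, -0.19 to 0.02 for NDI1 control against Cre control, and -0.91 to -0.59 for the knockout effect with NDI1 minus without. For NDI1 control against Cre control, males alone gave log2 0.05 and thinned counts 0.03, against -0.11 with all libraries. Th was not called in cKO+NDI1 against NDI1 control under any alternative (edgeR, DESeq2 or limma-voom adjusted p 0.256 to 1), nor was the knockout's effect in males minus in females (0.103 to 0.338).

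Replicate numbers are shared between groups but the labels give them no meaning. Of 36 same-numbered pairs 22 correlated above 0.1 (range -0.3 to 0.65). A library correlated best with its own number in 25 of 72 cases, with 6 candidates in each. Same-numbered libraries also share their sex, which was not removed beforehand, so these values cannot tell pairing from sex. They are a hint from the data and not from the design, and the main model did not pair libraries by number. With the replicate block Th gave log2 1.2 for cKO against Cre control, -0.83 for cKO+NDI1 against cKO and 0.49 for cKO+NDI1 against NDI1 control (edgeR adjusted p = 0.991).

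The number of genes called depended more on the setting. In cKO against Cre control it was 745, between 38 (males alone) and 1159 (DESeq2), and 504 to 914 with 1 library left out. In cKO+NDI1 against cKO it was 32, between 2 (males or females alone) and 110 (DESeq2), and 10 to 42 with 1 library left out. In cKO+NDI1 against Cre control it was 191, between 2 (females alone) and 491 (DESeq2), and 26 to 279. In cKO+NDI1 against NDI1 control it was 0, and up to 23 with DESeq2 and 3 with 1 library left out. In NDI1 control against Cre control it was 1, and up to 69 and 37. In male against female it was 13, and 8 to 38 over all settings. The knockout's difference between sexes gave 0, and up to 1632 with DESeq2 and 3963 with 1 library left out. Th had as few as 82 reads in a library, and with thinned counts its difference in cKO+NDI1 against NDI1 control was log2 0.38.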
